A study of Mus musculus with 8 samples.

Results

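Transcripts of 48 genes of the unfolded protein response and of the chaperone systems were followed in the liver of aged obese female mice. The genes were chosen by name for their role, with earlier results of these data known. No cutoff on a measured value was used. They comprised 15 chaperones and folding factors of the endoplasmic reticulum (ER), 7 factors of ER-associated degradation, 6 stress sensors and transcription factors, 7 genes of the ATF4-CHOP branch, 10 cytosolic heat shock genes and 3 mitochondrial chaperones. All 48 matched a gene identifier among the 56884 genes of the count tables, and 47 were among the 12412 genes with enough counts to be tested. The exception was Hspa1a.

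Liver poly(A) RNA of 8 C57BL/6J females aged 18 months was sequenced, with 1 library per mouse, so the spread within a group is a spread between mice. The 3 mice of the DIO group (diet-induced obese, replicates 1, 4 and 5) ate a high-fat diet, in which lipids gave 45% of the energy, from the age of about 2 months to the end. The 5 mice of the DIO + DHA group (replicates 1, 2, 4, 5 and 6) ate the same diet for the first 4 months, after which a fish oil concentrate with 683.4 mg of docosahexaenoic acid (DHA) and 46.7 mg of eicosapentaenoic acid per g took the place of 15% by weight of the lipids. The paper states that the mice were killed after an overnight fast. No group on a control diet was part of the sequencing, and no gene was deleted or transgenic. The comparison asks which of these genes changed with the long-term exchange of part of the saturated fat for DHA. Levels are given as CPM, the share of a gene in the counts of all tested genes, scaled by TMM and given per 1e6 counts. Values of single libraries follow the replicate order given above. An adjusted p is that of the quasi-likelihood F test of edgeR, corrected by Benjamini-Hochberg over all genes tested, and a gene is called higher or lower in DIO + DHA where it is under 0.05.

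Secretory proteins fold in the ER with the help of chaperones, and hepatocytes secrete most plasma proteins. When unfolded proteins gather there, sensors in the ER membrane start the unfolded protein response. ATF6 and the spliced form of XBP1, made after IRE1 (Ern1) cuts its mRNA, switch on genes of chaperones and of ER-associated degradation. PERK (Eif2ak3) slows translation and favours ATF4 and CHOP (Ddit3), which act on amino acid supply, redox balance and cell death. A separate system, driven by HSF1, switches on heat shock proteins of the cytosol, and mitochondria hold chaperones of their own. The libraries were 3′-enriched and did not show which form of Xbp1 mRNA was present, nor protein levels or phosphorylation.

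RefSeq promoters, from 250 bases before to 50 bases after the annotated start, were at hand for 38 of the 48 genes (GRCm38.p6), and were searched on both strands for motifs known from these responses. The stretches shown lie in the promoters of genes described below, are read in the direction of the gene, 5′ to 3′, and are placed on GRCm39 by an exact and unique match. Capitals mark the motif. Positions in bases count back from the start site, with -1 as the last base before it. The first set holds the ER stress element, CCAAT and CCACG separated by 9 bases, in genes of ER chaperones. Some of these stretches lie within first exons of other annotated transcripts.

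Hspa5 (-65 to -47, chr2:34662032-34662061, + strand): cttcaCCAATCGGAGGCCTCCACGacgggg
Hsp90b1, distal (-212 to -194, chr10:86541496-86541525, - strand): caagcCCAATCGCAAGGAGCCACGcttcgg
Hsp90b1, proximal (-107 to -89, chr10:86541391-86541420, - strand): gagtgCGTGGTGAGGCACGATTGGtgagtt
Pdia6 (-98 to -80, chr12:17316487-17316516, + strand): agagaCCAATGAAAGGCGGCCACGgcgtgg
Calr (-162 to -144, chr8:85573698-85573727, - strand): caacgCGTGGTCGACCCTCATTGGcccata
Canx (-145 to -127, chr11:50216621-50216650, - strand): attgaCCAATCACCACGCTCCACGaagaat
Dnajc3 (-105 to -87, chr14:119175234-119175263, + strand): cacaaCCAATCAGCGCCAACCACGacccgg
Creld2 (-126 to -108, chr15:88703718-88703747, + strand): cttctCGTGGCGAGCCTCAATTGGtccaca

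The element was found in 9 of the 38 genes with a promoter, 23.7%, against 0.137% of all 27025 genes in the promoter table. The genes and the motifs were both chosen for their part in these responses. A higher share among the members than among all genes therefore follows from that choice and is no finding of these data. Besides the 7 ER chaperones shown, out of 13 with a promoter, the ER-associated degradation genes Derl3 and Syvn1 held the ER stress element. None did among the genes with a promoter in the other 4 roles. These were 5 sensors and transcription factors, 6 ATF4-CHOP genes, 6 cytosolic heat shock genes and 2 mitochondrial chaperones. The next set shows the other motifs in genes with called changes. It holds a second ER stress element (ATTGG and CCACG separated by 1 base) and the C/EBP-ATF element (TGATGNAA) in Herpud1, the C/EBP-ATF element in Chac1, the shorter ATF6 and XBP1 element (TGACGTG) in Hspa5, and a heat shock element of 3 alternating units of GAA and TTC, each spaced by 2 bases, in the stretch shared by Hspd1 and Hspe1.

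Herpud1, second ER stress element (-52 to -42, chr8:95112996-95113025, + strand): cgggcgctgATTGGGCCACGttggacactg
Herpud1, C/EBP-ATF (-112 to -105, chr8:95112934-95112963, + strand): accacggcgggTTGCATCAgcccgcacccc
Chac1, C/EBP-ATF (-193 to -186, chr2:119181519-119181548, + strand): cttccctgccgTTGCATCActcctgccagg
Hspa5, ATF6 and XBP1 (-157 to -151, chr2:34661934-34661963, + strand): gggcgtagcaaTGACGTGagttgcggagga
Hspe1, heat shock (-84 to -72, chr1:55127215-55127244, + strand): ccgttctaGAACCTTCCGGAAggccccgcg

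The second ER stress element was found in Herpud1 and Dnajb11 and in 0.0444% of all genes. TGACGTG was found in Hspa5 alone of the members and in 2.22% of all genes, and the C/EBP-ATF element in Chac1, Herpud1 and Trib3 and in 4.51%. The heat shock element was found in Hspd1, Hspe1, Hsph1 and Creb3l3 and in 0.662% of all genes. Only 6 of the 10 cytosolic heat shock genes had a promoter to search, and Hsph1 was the 1 match among them. A match describes the letters of a window and does not show that a factor was bound there.

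**Figure D1:**
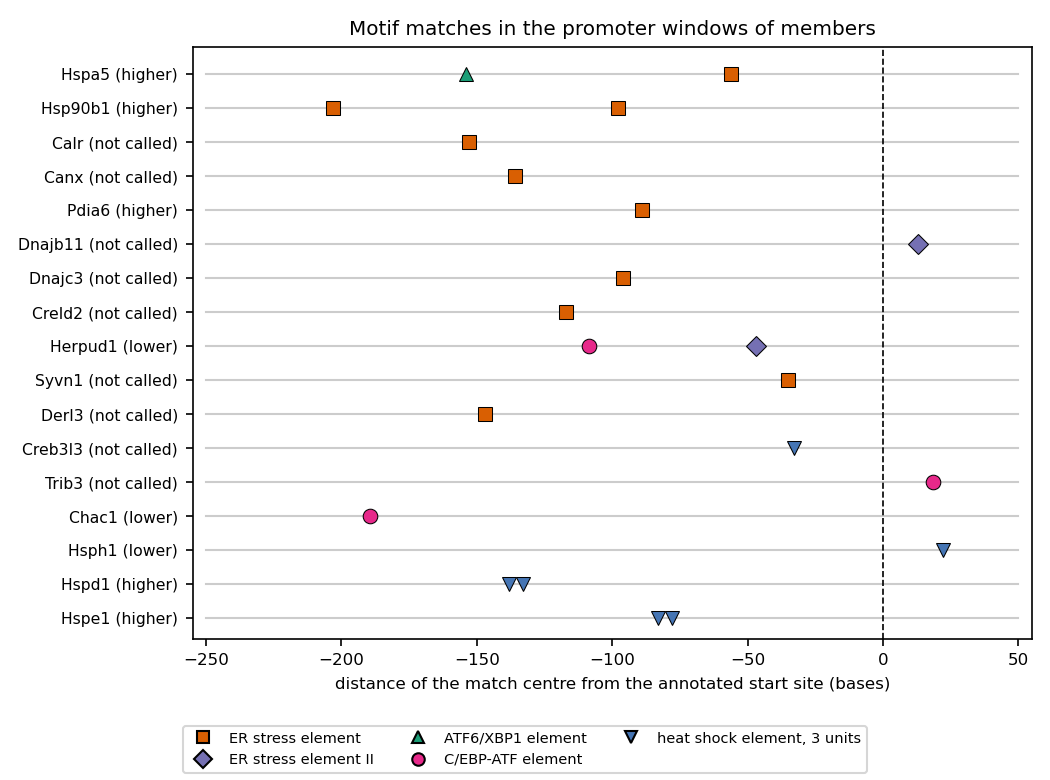
Positions of motif matches in the promoter windows of the members that held one, by distance of the match centre from the annotated start site in bases (horizontal axis), with the call of each gene in the DIO + DHA against DIO comparison beside its name. Of the genes with an ER stress element (squares), Hspa5, Hsp90b1 and Pdia6 were called higher and the other 6 were not called. Of the genes with a C/EBP-ATF element (circles), Herpud1 and Chac1 were called lower and Trib3 was not called.

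Among the 47 genes tested, 12 were called higher in the DIO + DHA group, 7 were called lower and 28 were not called. Over all genes tested, 7.89% were called higher and 7.28% lower. The median log2 fold change was 0.12 over the members and 0.00 over all genes tested. In 11 members the lowest DIO + DHA library exceeded the highest DIO library, and in 6 the reverse held, where 9.54% and 8.88% of all genes tested did so. By role, 7 of 15 ER chaperones were called, all higher. Called lower were 1 of 7 genes of ER-associated degradation (Herpud1), 2 of 6 sensors and transcription factors (Xbp1 and Crebrf) and 1 of 7 ATF4-CHOP genes (Chac1). Of 9 cytosolic heat shock genes, 3 were higher and 3 lower, and of 3 mitochondrial chaperones 2 were higher. Counts of 1 or 2 are too few to set a role apart from the shares over all genes. They are results for the single genes named.

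**Figure D2:**
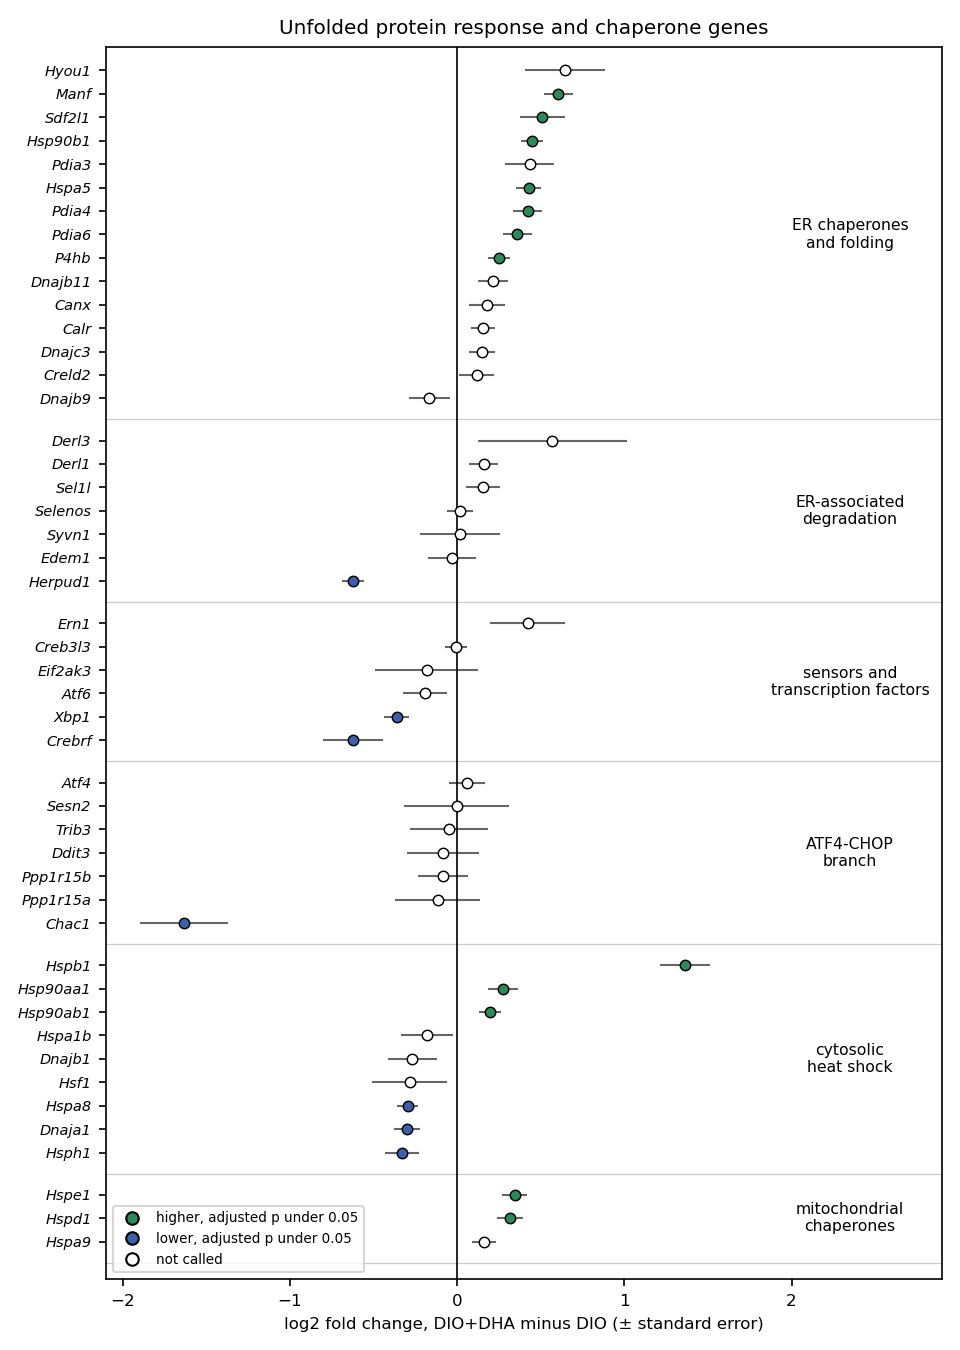
Log2 fold change of each tested member, DIO + DHA minus DIO, with its standard error, ordered by role and, within a role, by value. Filled points are called at an adjusted p under 0.05 (green higher, blue lower), and Hspb1 at 1.36 and Chac1 at -1.64 lie farthest from 0.

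Of the 15 ER chaperones and folding factors, 7 were called higher in DIO + DHA livers and 0 lower, 14 had a positive log2 fold change, and their median was 0.36. Their summed level had a mean of 2785 CPM (SD 66.3, n = 3) and 3514 CPM (SD 144, n = 5), with ranges of 2711 to 2839 and 3348 to 3707 CPM that did not overlap.

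Hspa5 (ENSMUSG00000026864.14, chromosome 2, 34661982 to 34667559 in GRCm39) encodes BiP, the main Hsp70 of the ER lumen, which also holds the stress sensors inactive. Its level was 563, 697 and 613 CPM in the DIO libraries and 810, 947, 797, 914 and 745 CPM in the DIO + DHA libraries. Every DIO + DHA library stood above the highest DIO library. The means were 624 ± 67.7 (SD, n = 3) and 843 ± 84.6 (SD, n = 5), which gave a log2 fold change of 0.43 (standard error 0.07, edgeR adjusted p = 2.0e-05). Hsp90b1 (ENSMUSG00000020048.14, chromosome 10, 86526073 to 86541373), the Hsp90 of the ER known as GRP94, was at 444, 432 and 417 CPM and at 584, 599, 565, 606 and 578 CPM. The groups lay far apart against a narrow spread within each, with means of 431 ± 13.6 and 586 ± 16.5 CPM and a log2 fold change of 0.45 (standard error 0.07, edgeR adjusted p = 3.6e-07). Other genes share 15.7% of the Hsp90b1 exon bases, and reads in such stretches were not counted for any gene.

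Manf (ENSMUSG00000032575.17, chromosome 9, 106715511 to 106769178), a small ER protein that is secreted under ER stress, had the largest log2 fold change of the called ER chaperones. Its level was 97.9, 102 and 90.3 CPM in the DIO libraries and 142, 146, 144, 129 and 171 CPM in the DIO + DHA libraries, which did not overlap. The log2 fold change was 0.60 (standard error 0.09, edgeR adjusted p = 1.6e-07), and other genes overlap 9.25% of its exon bases. Sdf2l1, a partner of BiP that keeps substrates soluble, stood at 18.6, 18.9 and 22.7 CPM in the DIO group and at 28.4, 27.8, 26, 34.0 and 28.4 CPM in the DIO + DHA group. The call, at a log2 fold change of 0.51 (standard error 0.13, edgeR adjusted p = 0.0041), was lost without DIO replicate 4 (edgeR adjusted p = 0.055).

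The called protein disulfide isomerases, which form and reshuffle disulfide bonds, moved with them. Pdia4 was at 115, 117 and 110 CPM in the DIO libraries and at 151, 174, 146, 169 and 125 CPM in the DIO + DHA libraries (log2 fold change 0.42, standard error 0.09, edgeR adjusted p = 2.1e-04). Pdia6 was at 109, 94.7 and 105 CPM and at 115, 139, 128, 150 and 124 CPM (log2 fold change 0.36, standard error 0.09, edgeR adjusted p = 0.0016). P4hb, the archetype of the family and also a subunit of prolyl 4-hydroxylase, was at 506, 510 and 528 CPM and at 637, 627, 610, 562 and 625 CPM (log2 fold change 0.25, standard error 0.07, edgeR adjusted p = 0.0043). In none of the 3 did a DIO + DHA library fall among the DIO libraries, although Pdia4 and Pdia6 came close to them in 1 library each, DIO + DHA replicates 6 and 1.

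The other 8 ER chaperones were not called, with log2 fold changes from -0.17 to 0.65. Pdia3, which folds glycoproteins together with calreticulin and calnexin, was at 194, 181 and 133 CPM and at 231, 255, 231, 238 and 174 CPM (log2 fold change 0.43, standard error 0.15, edgeR adjusted p = 0.090). Its level in DIO + DHA replicate 6 lay among the DIO libraries, and without that library the gene was called (edgeR adjusted p = 2.28e-05). Hyou1, the nucleotide exchange factor of BiP, had the largest value of the 8, 0.65, with a standard error of 0.24 (edgeR adjusted p = 0.062), and was called without the same library (edgeR adjusted p = 0.0039) or without DIO replicate 1 (edgeR adjusted p = 0.023). Canx (calnexin), at 0.18 (edgeR adjusted p = 0.319), was called without DIO replicate 1 (edgeR adjusted p = 0.014). The remaining values were 0.21 for Dnajb11, 0.16 for Calr (calreticulin), 0.15 for Dnajc3, 0.12 for Creld2 and -0.17 for Dnajb9, the last an Hsp40 partner of BiP and known target of spliced XBP1. Dnajb9 was at 33.8, 32.1 and 30.5 CPM and at 32.7, 28.2, 24.3, 29.5 and 25.8 CPM, with overlap between the groups. Genes with the ER stress element stood on both sides of the threshold. Hspa5, Hsp90b1 and Pdia6 held it and were called higher, while Calr, Canx, Dnajc3 and Creld2 held it and were not called.

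**Figure D3:**
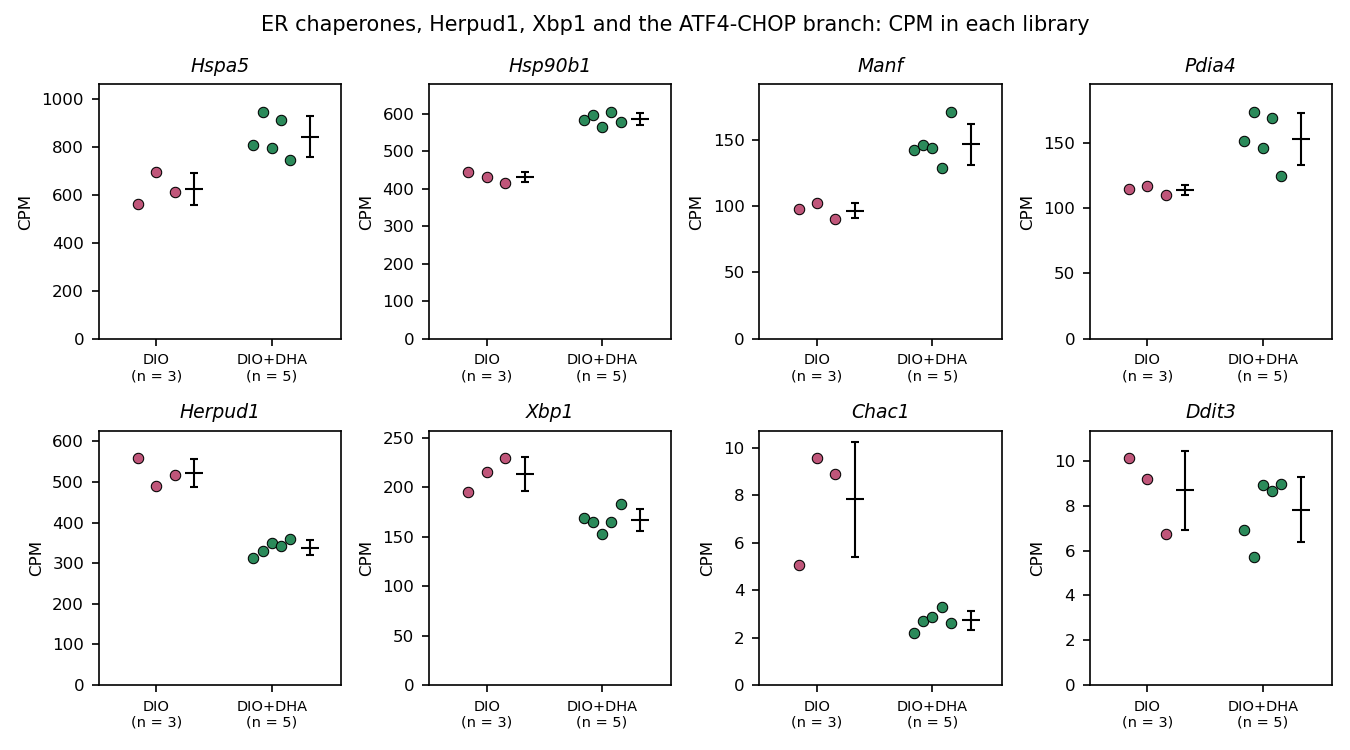
CPM of 8 genes in each library (points), with the mean and SD of each group beside them and axes that start at 0. The 5 DIO + DHA libraries sit above the 3 DIO libraries for Hspa5, Hsp90b1, Manf and Pdia4 and below them for Herpud1, Xbp1 and Chac1, and the groups overlap for Ddit3.

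Among the 7 genes of ER-associated degradation, which returns misfolded proteins to the cytosol for destruction, 1 was called, and it was lower. Herpud1 (ENSMUSG00000031770.17, chromosome 8, 95113066 to 95122005), a membrane protein that organises the retrotranslocation complex, was at 559, 491 and 518 CPM in the DIO libraries and at 312, 330, 349, 341 and 360 CPM in the DIO + DHA libraries. All 5 DIO + DHA libraries lay well below the lowest DIO library. The means were 522 ± 34.1 (SD, n = 3) and 339 ± 18.5 (SD, n = 5), which gave a log2 fold change of -0.62 (standard error 0.07, edgeR adjusted p = 8.3e-11). It stayed between -0.66 and -0.57, and called, under all 18 alternatives to the processing. The other 6 genes of this role had log2 fold changes from -0.03 to 0.57 and were not called. They were Edem1 (-0.03), which picks out misfolded glycoproteins, Sel1l (0.15) and Syvn1 (0.02) of the ubiquitin ligase HRD1, Derl1 (0.16) and Derl3 (0.57) of the channel, and Selenos (0.02). The value of Derl3 rested on 0.703 to 3.06 CPM per library and had a standard error of 0.44.

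The sensors and transcription factors included 2 called genes, both lower. Xbp1 (ENSMUSG00000020484.20, chromosome 11, 5470659 to 5475893), the mRNA that IRE1 splices, was at 195, 216 and 230 CPM in the DIO libraries and at 169, 165, 153, 165 and 183 CPM in the DIO + DHA libraries. The groups did not overlap, with means of 213 ± 17.3 and 167 ± 11.0 CPM and a log2 fold change of -0.36 (standard error 0.08, edgeR adjusted p = 2.5e-04). Crebrf, a bZIP factor that holds CREB3 in check, was at 16.3, 14.1 and 15.4 CPM and at 7.93, 11.1, 7.14, 9.84 and 12.4 CPM. Its log2 fold change of -0.63 (standard error 0.18, edgeR adjusted p = 0.010) lost its call without DIO replicate 5 (edgeR adjusted p = 0.069). The sensors themselves were not called. Ern1 had a log2 fold change of 0.42 (standard error 0.22, edgeR adjusted p = 0.231), Atf6 one of -0.19 (edgeR adjusted p = 0.388) and Eif2ak3 one of -0.18 (edgeR adjusted p = 0.787). Creb3l3, the liver factor CREBH that is cut like ATF6, was among the steadiest members, at 563 ± 31.9 and 561 ± 22.6 CPM, with a log2 fold change of -0.01 (95% interval -0.14 to 0.12).

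In the ATF4-CHOP branch, 1 of 7 genes was called. Chac1 (ENSMUSG00000027313.4, chromosome 2, 119181710 to 119184862), an enzyme that breaks down glutathione, had the largest fall of the members. Its level was 5.06, 9.56 and 8.87 CPM in the DIO libraries and 2.18, 2.68, 2.85, 3.28 and 2.62 CPM in the DIO + DHA libraries, which came from 9, 53 and 50 counts and from 11, 8, 8, 14 and 12 counts. The groups did not overlap, although the shallow DIO replicate 1 lay below the other two DIO libraries. The log2 fold change was -1.64 (standard error 0.26, edgeR adjusted p = 2.2e-06). Atf4 itself, the bZIP factor at the head of the branch, was at 57.9, 46.5 and 39.9 CPM and at 43.6, 48.9, 54.9, 45.4 and 49.8 CPM, with overlap and a log2 fold change of 0.06 (95% interval -0.16 to 0.27, edgeR adjusted p = 0.812). Ddit3 (CHOP) was at 10.1, 9.2 and 6.74 CPM and at 6.94, 5.70, 8.92, 8.67 and 8.95 CPM, also with overlap (log2 fold change -0.08, 95% interval -0.50 to 0.34, edgeR adjusted p = 0.866). The intervals of Atf4 and Ddit3 bound the size of a change and do not show that there was none. The name Ddit3 matched 2 gene identifiers, and only the first was used. Other annotated genes, the second Ddit3 entry among them, overlap 10.9% of the exon bases of the one used. Trib3, a pseudokinase induced by CHOP, was at -0.05, Ppp1r15a (GADD34) and Ppp1r15b, which restore translation, at -0.12 and -0.08, and Sesn2, a sestrin, at -0.00 on the log2 scale, and none was called. Translational control of ATF4 is not seen in mRNA levels.

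Genes of some other cell types moved in the same libraries, where 7.28% of all genes tested were lower and 7.89% higher. Transcripts of 16 macrophage and Kupffer cell genes summed to 994 to 1090 CPM in the DIO libraries and to 564 to 596 CPM in the DIO + DHA libraries, with 13 lower and 1 higher. Of 11 tested T and NK cell genes 8 were lower (144 to 163 against 51.5 to 58.7 CPM), and of 10 endothelial genes 2 were lower (242 to 260 against 184 to 219 CPM). Of 8 tested B and plasma cell genes, out of 14 listed, 1 was lower, a count near the share over all genes. Their summed ranges overlapped (371 to 420 against 354 to 392 CPM). The 11 hepatocyte genes summed to 135070 to 142490 CPM and to 144500 to 157340 CPM, with 3 higher and 4 lower, so hepatocyte transcripts were abundant in all libraries as the tissue label implies. In bulk RNA, fewer cells of a type and less RNA per cell cannot be told apart. The part of these shifts in the levels of Xbp1, Herpud1, Chac1 and the ER chaperones was not tested.

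The cytosolic heat shock genes showed no common direction. Of the 9 tested, 3 were higher and 3 lower, their median log2 fold change was -0.27, and their summed level had a mean of 2119 CPM (SD 47.4, n = 3) and 2080 CPM (SD 83.8, n = 5), with overlapping ranges. Hspa8 (ENSMUSG00000015656.18, chromosome 9, 40712280 to 40721383), the constitutive Hsp70 of the cytosol, was at 738, 789 and 779 CPM and at 617, 610, 609, 663 and 633 CPM. No library of the groups overlapped, and the log2 fold change was -0.30 (standard error 0.06, edgeR adjusted p = 3.6e-04). Its J-domain partner Dnaja1 was at 173, 214 and 189 CPM and at 159, 164, 150, 161 and 152 CPM (log2 fold change -0.30, standard error 0.08, edgeR adjusted p = 0.0031) and lost its call without DIO replicate 4 (edgeR adjusted p = 0.148). Hsph1 (Hsp110), which recharges Hsp70 with nucleotide, was at 106, 101 and 87.5 CPM and at 83.5, 87.8, 88.5, 62.8 and 65.7 CPM. These groups overlapped, and the call (log2 fold change -0.33, standard error 0.10, edgeR adjusted p = 0.018) was lost without DIO replicate 1 (0.070), DIO replicate 4 (0.130) or DIO + DHA replicate 5 (0.057).

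Hspa1b, Dnajb1 and Hsf1 were not called. Hspa1b, the inducible Hsp70 that serves as a usual readout of heat shock, was at 20.3, 15.1 and 18.6 CPM and at 14.9, 17.4, 17.5, 14.1 and 14.4 CPM, with overlap (log2 fold change -0.18, 95% interval -0.49 to 0.12, edgeR adjusted p = 0.517). Its near copy Hspa1a had 3, 1 and 5 counts in the DIO libraries and 3, 4, 2, 2 and 2 counts in the DIO + DHA libraries, too few for a test. Dnajb1 (Hsp40) was at 24.8, 20.4 and 35.8 CPM and at 22, 19.4, 26.4, 22.2 and 24 CPM (log2 fold change -0.27, edgeR adjusted p = 0.249). DIO replicate 5 stood highest, and the value was 0.08 without it and -0.48 and called (edgeR adjusted p = 0.028) without DIO replicate 4. Hsf1, the master factor of the response, was at 10.7, 6.85 and 7.28 CPM and at 5.75, 7.71, 5.71, 6.79 and 5.90 CPM (log2 fold change -0.28, standard error 0.23, edgeR adjusted p = 0.477), again with overlap.

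Both Hsp90 genes of the cytosol, whose proteins mature kinases and steroid receptors, were called higher by a small step. Hsp90ab1, the constitutive form, was at 925, 933 and 870 CPM and at 1106, 1006, 1163, 955 and 986 CPM, without overlap (log2 fold change 0.20, standard error 0.07, edgeR adjusted p = 0.032). Hsp90aa1, the inducible form, was at 99.0, 79.7 and 76.5 CPM and at 101, 88.1, 106, 104 and 101 CPM, with overlap (log2 fold change 0.27, standard error 0.09, edgeR adjusted p = 0.028). Neither call was firm. Hsp90ab1 lost its call without DIO replicate 4 (edgeR adjusted p = 0.053), DIO replicate 5 (0.112), DIO + DHA replicate 1 (0.122) or DIO + DHA replicate 4 (0.177), and Hsp90aa1 without DIO replicate 4 (0.148), DIO replicate 5 (0.196) or DIO + DHA replicates 1 (0.067), 4 (0.085) or 5 (0.056).

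Hspb1 (ENSMUSG00000004951.11, chromosome 5, 135916773 to 135918417) had the largest rise of the members. It encodes a small heat shock protein that holds unfolded proteins without using ATP and is abundant in muscle. Its level was 14.6, 10.8 and 11.0 CPM in the DIO libraries and 29.8, 31.5, 30.3, 25.5 and 31.9 CPM in the DIO + DHA libraries, a log2 fold change of 1.36 (standard error 0.15, edgeR adjusted p = 1.2e-10) without overlap. Transcripts of skeletal muscle were also more abundant in these livers. All 20 listed muscle genes were higher, 1 of them at 0 in every DIO library, and their summed level was 47.2 to 52.7 CPM in the DIO libraries and 1536 to 1675 CPM in the DIO + DHA libraries. Of the 11 tested genes of stratified squamous epithelium, out of 16 listed, 9 were higher, and 9 of the 16 were at 0 in every DIO library (summed 183 to 197 against 298 to 321 CPM). The part of such transcripts in the level of Hspb1 was not tested.

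Several of these counts are uncertain because close copies exist in the genome and reads that aligned to several places were left out. Of the 80-base stretches in the last 500 bases of the annotated transcripts, 42.1% for Hspa8, 35.9% for Dnaja1, 28.2% for Hspb1, 27.0% for Hsp90aa1, 20.1% for Hspd1 and 10.2% for Hspe1 also occur in transcripts of genes elsewhere. Hspa1a and Hspa1b, which lie next to each other on chromosome 17, shared no such stretch, but 19% of the exon bases of Hspa1a overlap a gene on the opposite strand.

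**Figure D4:**
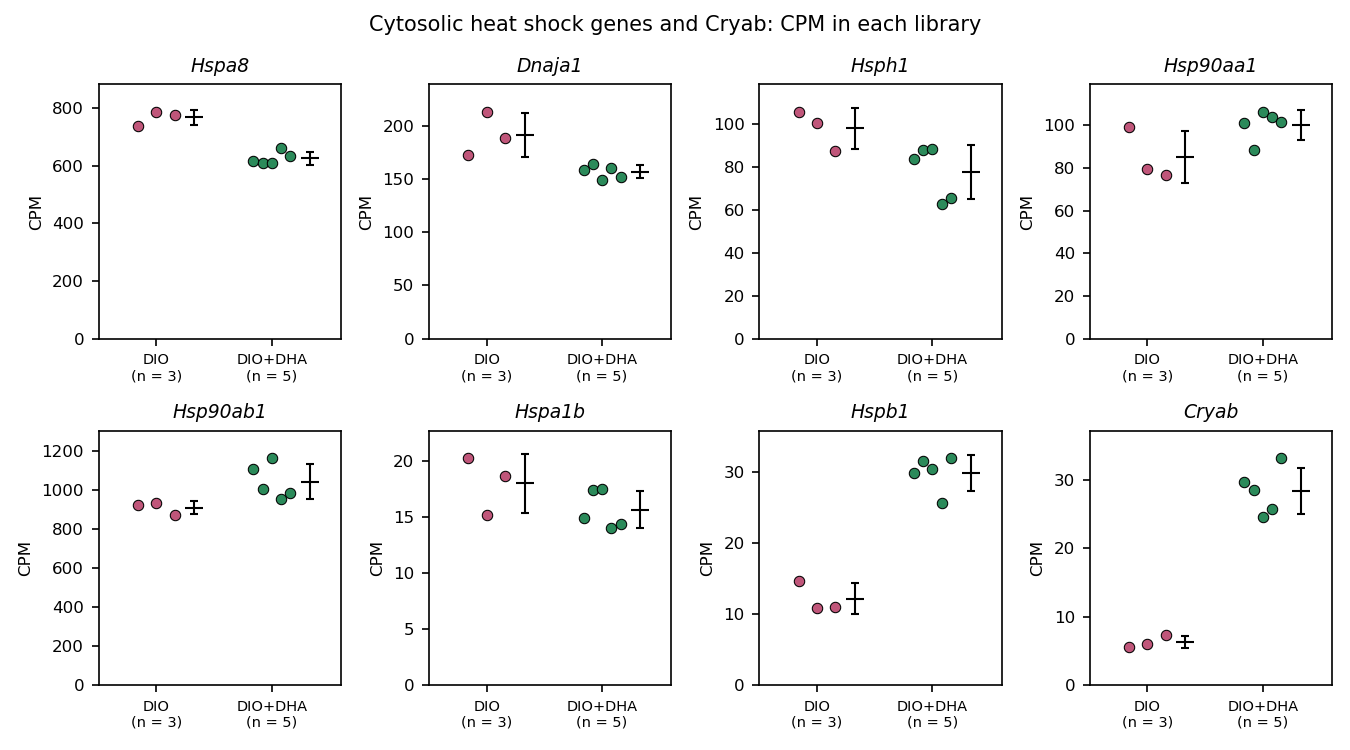
CPM of 7 cytosolic heat shock genes and of Cryab, a related small heat shock gene that is not one of the 48, in each library (points), with the mean and SD of each group and axes that start at 0. Hspa8 and Dnaja1 are lower and Hspb1 and Cryab higher in all 5 DIO + DHA libraries, while Hspa1b overlaps between the groups.

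All 3 mitochondrial chaperones had a positive log2 fold change, and 2 were called higher. Hspd1 (HSP60), which folds imported proteins in a closed chamber, was at 257, 277 and 221 CPM and at 309, 338, 299, 345 and 274 CPM. DIO + DHA replicate 6 lay just below the highest DIO library, and the call (log2 fold change 0.32, standard error 0.08, edgeR adjusted p = 0.0023) was lost without DIO replicate 5 (edgeR adjusted p = 0.057). Hspe1 (HSP10), the lid of that chamber, was at 323, 296 and 277 CPM and at 360, 335, 381, 375 and 432 CPM, without overlap (log2 fold change 0.34, standard error 0.08, edgeR adjusted p = 4.3e-04). The genes lie head to head on chromosome 1, and the heat shock element shown above lies in the promoter windows of both. Hspa9 (mortalin), which pulls proteins into the matrix, had a log2 fold change of 0.16 (standard error 0.07, edgeR adjusted p = 0.128). The 3 genes summed to 946 ± 82.8 CPM (SD, n = 3) and 1131 ± 19.9 CPM (SD, n = 5), with ranges of 851 to 1003 and 1106 to 1152 CPM.

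**Figure D5:**
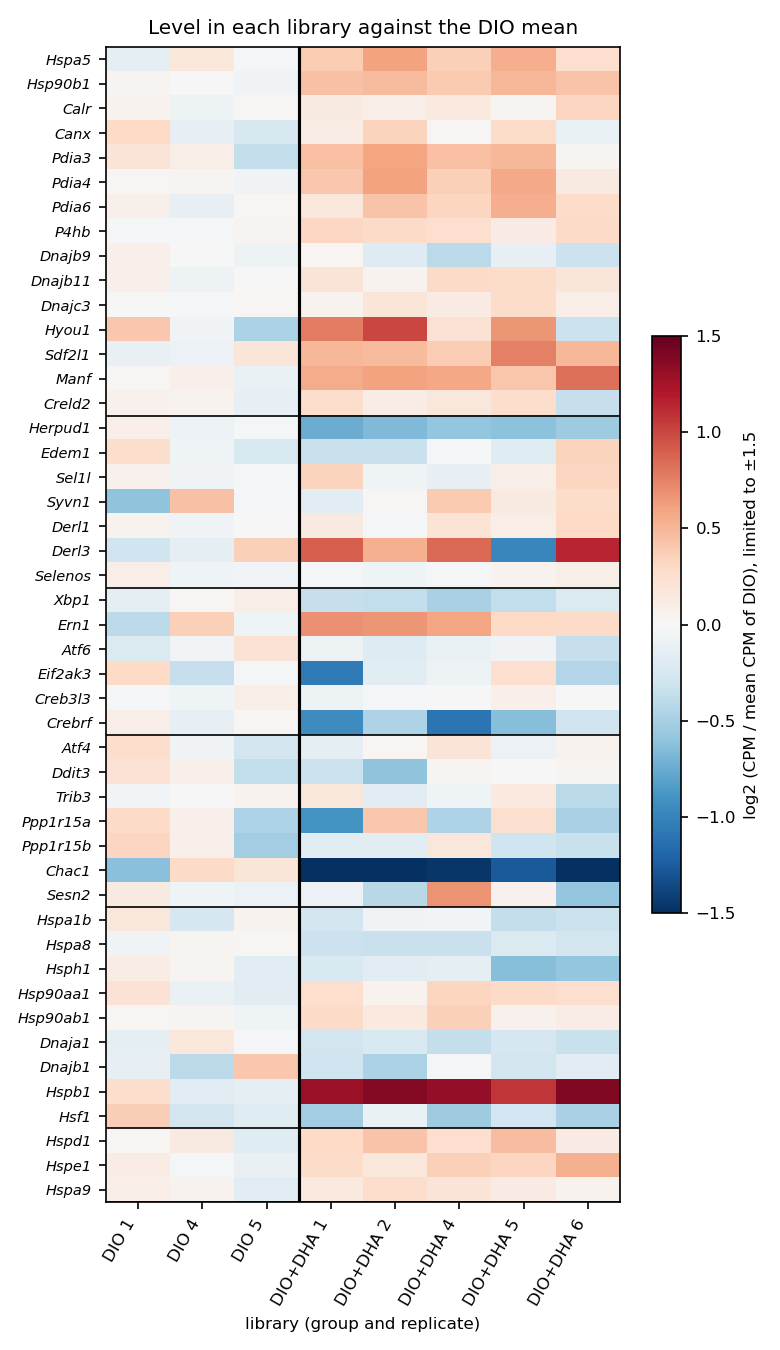
Log2 ratio of each library's CPM to the mean of the DIO group for the 47 tested members (rows, by role, with lines between the roles) in the 3 DIO and 5 DIO + DHA libraries (columns). The 5 DIO + DHA libraries are red for Hspb1, Hspa5, Hsp90b1 and Manf and blue for Chac1, Herpud1 and Crebrf.

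Genes of the same pathways beyond the 48 were taken from hand-written lists. The counts of each list stand beside shares of 7.89% higher and 7.28% lower over all genes tested. The other ER folding factors, such as oligosaccharyltransferase subunits and prolyl isomerases, were nearly flat: of 27 tested, 2 were higher and 0 lower, with a median log2 fold change of -0.01. The called genes were Ostc (0.31, edgeR adjusted p = 0.036), of the oligosaccharyltransferase, and Mlec (0.30, edgeR adjusted p = 0.045), a lectin that binds newly glycosylated proteins, and the most abundant was Fkbp2, at 500 ± 50.5 and 485 ± 46.0 CPM. The other factors of ER degradation and translocation were similar, with 1 of 32 higher and 0 lower and a median of 0.05. That gene was Srpr (0.33, edgeR adjusted p = 0.011), the receptor of the signal recognition particle, and the most abundant was Os9 (0.10, edgeR adjusted p = 0.430).

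Of 31 other tested genes linked to ATF4, 3 were higher and 5 lower, with a median log2 fold change of -0.13. Cebpb, a partner of ATF4 that also drives the acute phase response, fell from 195 ± 4.99 to 94.1 ± 5.42 CPM (SD over 3 and 5 mice, log2 fold change -1.05, edgeR adjusted p = 5.1e-17). Atf5, the most abundant of the list and a factor of the mitochondrial stress response, moved the other way, from 312 ± 28.2 to 518 ± 51.9 CPM (log2 fold change 0.73, edgeR adjusted p = 2.5e-11). Cth, the last enzyme of cysteine synthesis, rose from 127 ± 7.80 to 211 ± 7.89 CPM (log2 fold change 0.72, edgeR adjusted p = 4.0e-11), and Aars (Aars1), the alanyl-tRNA synthetase, fell from 175 ± 7.03 to 126 ± 5.97 CPM (log2 fold change -0.47, edgeR adjusted p = 3.2e-06).

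Among 40 other tested heat shock and co-chaperone genes, 4 were higher and 3 lower, shares near those over all genes, with a median of 0.05. Cryab (alpha-B crystallin) rose from 6.28 ± 0.874 to 28.4 ± 3.39 CPM (log2 fold change 2.14, edgeR adjusted p = 2.2e-15) and Hspb6 from 14.8 ± 0.664 to 39.7 ± 6.28 CPM (log2 fold change 1.43, edgeR adjusted p = 2.9e-12). Both are small heat shock genes expressed in muscle and were higher in the same libraries as the muscle transcripts given above. The part of such transcripts in their levels was not tested. Hspb2, a small heat shock gene whose locus overlaps that of Cryab, was also higher (log2 fold change 1.35, edgeR adjusted p = 4.3e-04). It had 3 to 29 counts per library, and the part of the muscle transcripts in its level was not tested either. Hspb8, another small heat shock gene, went the other way, from 211 ± 12.9 to 157 ± 11.1 CPM (log2 fold change -0.43, edgeR adjusted p = 1.3e-05). Fkbp5, a partner of Hsp90 and target of glucocorticoids, fell from 104 ± 1.55 to 51.4 ± 5.23 CPM (log2 fold change -1.02, edgeR adjusted p = 8.1e-14). Ubb, which encodes ubiquitin and was the most abundant gene named from this list, had a log2 fold change of -0.04 (edgeR adjusted p = 0.810).

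Of 15 other mitochondrial chaperones and proteases, 3 were higher and 1 lower, with a median of -0.01. Clpx, the unfoldase of the ClpXP protease, rose from 79.1 ± 6.28 to 152 ± 14.0 CPM (log2 fold change 0.93, edgeR adjusted p = 5.9e-13), and its protease partner Clpp from 92.0 ± 6.94 to 115 ± 9.46 CPM (log2 fold change 0.32, edgeR adjusted p = 0.0060). Lonp1, another protease of the matrix, fell by 0.31 on the log2 scale (edgeR adjusted p = 0.011). Atf5, described above, was the third higher gene.

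Clock transcripts differed between the groups as well. Of 17 tested clock genes, 10 were lower and 2 higher in DIO + DHA livers, and their summed level was 401 to 419 CPM in the DIO libraries and 295 to 317 CPM in the DIO + DHA libraries. The cold-induced genes Cirbp (0.17) and Rbm3 (-0.67) were not called. Chaperone genes of the cytosol and ER are known to vary with the time of day and with feeding, and both groups had fasted overnight. The part of the clock shift in the levels of the 48 genes was not tested.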

How the data were processed

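Liver RNA of 3 DIO and 5 DIO + DHA mice was measured by 3′-enriched poly(A) RNA sequencing. The deposited files hold unnormalized counts of each gene, which the authors made by alignment to GRCm39 with STAR 2.7.9a and counting on GENCODE release 33 exons with featureCounts 1.6.0, without strand and with unique alignments. Whether molecular identifiers were collapsed is not given in the sources used here. Gene names came from GENCODE release 39. Libraries held 1723800 to 5690347 counts (median 4495644), with DIO replicate 1 the shallowest.

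Genes with a count under 5 in over 50% of the libraries of both groups were left out. Counts of the other 12412 genes were scaled by TMM and compared by edgeR 4.0.16 (R 4.3.3) with its quasi-likelihood F test (robust, common biological coefficient of variation 0.0801, Benjamini-Hochberg, adjusted p under 0.05). The standard error of a log2 fold change was its absolute value divided by the square root of F. The 95% intervals used the normal distribution and are approximate, for single genes, without correction for the number of genes. The test of the study, limma-voom at B above 0 (B is the log-odds of a change, limma 3.58.1, prior proportion 0.01), and DESeq2 1.42.0 were alternatives, as were other scalings and filters, a block for the replicate number, and leaving out each library. In simulated counts of 12026 genes with 200 changed, edgeR called 95% of the genes changed 2-fold, 60% of those changed by 0.5 (log2) and 0.11% of the unchanged ones. The changed genes were drawn only from those with at least 200 counts over all libraries. The recovery of genes with fewer counts, such as Chac1, was not simulated. Far more genes were called in the data, 979 higher and 904 lower, than were changed in the simulation. The Benjamini-Hochberg cutoff depends on that number, so the recovery in the data may differ.

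Called members are named with values, single libraries are given for them and for Hspa5, Xbp1, Atf4, Ddit3, Hspa1a, Hspa1b, Hspa8, Hsf1 and Hspd1, and pathway lists are given by up to 4 called genes of smallest p and the most abundant one. Hspb2, Hspb8, other values of single libraries (Pdia3, Dnajb9 and Dnajb1) and the second ER stress element were chosen after values or sequences were seen. The members and lists were chosen with earlier results of these data known. Protein sequences and isoforms were not analysed here. A called gene that this rule would name is not reported here.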

Additional observations from a re-analysis of the deposited data

Results flagged for a closer look

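In groups of 5 libraries, 1 of the 47 tested members had a library that stood far from the others. Hsp90aa1 was at 88.1 CPM in DIO + DHA replicate 2, against 101 CPM in the nearest of the other 4 libraries, a gap of 0.716 of the group's range. Chance flags about 1 in 20 groups, so a single flag among 47 is not a pattern. The DIO + DHA mean of Hsp90aa1 includes this library.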

How the results depend on the processing

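Limits of depth and of 3 against 5 mice show in Chac1, which has 8 to 53 counts per library, and in the test's recovery of small changes. That recovery was simulated only in genes with more counts than Chac1, and with fewer changed genes than were called in the data. No called member changed sign under any of the alternatives. With limma-voom and B above 0, 6 members were higher and 4 lower in place of 12 and 7, 4 ER chaperones were higher, and 1 cytosolic heat shock gene was higher and 1 lower. This is a stricter threshold, since the adjusted p of the same limma-voom fit gave 13 higher and 7 lower. With the DESeq2 Wald test 1 cytosolic heat shock gene was higher. With at least 10 counts in every library 0 genes of the ATF4-CHOP branch were lower, because Chac1 was not tested there. Leaving out 1 library gave 9 to 14 members higher and 6 to 7 lower, 6 to 9 ER chaperones higher and 0 lower, 1 ATF4-CHOP gene lower and 0 higher, and 1 to 3 cytosolic heat shock genes higher and 2 to 3 lower. The heat shock count of 1 came without DIO replicates 4 or 5 or DIO + DHA replicates 1 or 4. Over all genes, edgeR called 979 higher and 904 lower, limma-voom at B above 0 463 and 397, the DESeq2 test 716 and 601, and 665 and 751 passed with at least 10 counts in every library. The replicate numbers 1, 4 and 5 showed no sign of pairing the mice. Deviations of same-numbered libraries from their group means had correlations of -0.013, -0.013 and -0.011, and other pairs -0.059 to 0.062. Such correlations over all tested genes cannot exclude a pairing. With the replicate number as a block, 13 members were higher and 7 lower, with Pdia3 called in addition.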
